A study of Mus musculus with 18 samples.

Results

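Open chromatin was described around Pax3 and Pax7, the paired-box transcription factors of muscle progenitors. The data were ATAC-seq peak lists, in which a peak marks DNA that a transposase could enter. The members were all peaks whose summit lay in chromosome 1, 78060000 to 78240000 (the Pax3 window, 180.0 kb) or chromosome 4, 139250000 to 139440000 (the Pax7 window, 190.0 kb), in mm9 coordinates. Peaks from different lists that shared at least 1 bp were joined into regions. This gave 49 regions of the 141979 in the whole series, 13 in the Pax3 window and 36 in the Pax7 window. The windows were defined by position and by no measured value, but they were chosen with earlier results of these data known.

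The 12 ATAC-seq samples came from skeletal muscle cells and formed 4 groups of 3. Wild-type myoblasts and MyoD-null myoblasts carried no stated treatment, and the wild-type and MyoD-null myocytes had undergone myogenic differentiation for 24 h. MyoD is a myogenic transcription factor that can turn other cells into muscle, and the null cells came from MyoD-null mice. The labels do not state strain, age, the MyoD allele, or whether the 3 samples of a group came from separate animals or cultures. Each group was represented by 1 deposited list called on merged reads, so the values below have no spread between replicates and no test between groups. Cell types could not be checked against marker genes, because no gene annotation in mm9 was used here. Each list comes from many cells, so fewer cells with an open site and a less open site per cell cannot be told apart.

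The genotypes of the myocyte lists are uncertain. In the file labelled wild type the peak names read MKO, as MyoD-null samples are titled, and in the file labelled MyoD-null they read WT. For the myoblasts, names and labels agreed. The myocyte peak names also share a prefix that the myoblast names lack, whose meaning is not stated, so whatever it marks and differentiation cannot be told apart. Below, the first of these files is called the wild-type-labelled myocytes and the second the null-labelled myocytes, and results that depend on the genotype are also given for the opposite reading.

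Pax3 and Pax7 are closely related proteins that bind DNA through a paired domain and a homeodomain. Pax3 acts in the embryo, in the dermomyotome and in the precursors that migrate into the limbs. Pax7 marks satellite cells, the stem cells of adult muscle, and is needed to maintain them. Both lie upstream of the myogenic factors Myf5 and MyoD, and their expression is known to fall as myoblasts leave the cell cycle and differentiate. Accessibility of DNA around a gene is not a measure of its expression, and no expression value is reported here.

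The sequence tables used here (RefSeq, GRCm38.p6) matched 1 of the 2 genes, Pax7, and not Pax3. The 250 bases before the annotated Pax7 start, at chr4:139832969-139833218 on the minus strand of GRCm38.p6, are shown because this is the start of the gene the window is named for. These coordinates belong to another build than the peaks, so no peak was placed on this stretch. Capitals mark the CG dinucleotides.
Pax7 promoter: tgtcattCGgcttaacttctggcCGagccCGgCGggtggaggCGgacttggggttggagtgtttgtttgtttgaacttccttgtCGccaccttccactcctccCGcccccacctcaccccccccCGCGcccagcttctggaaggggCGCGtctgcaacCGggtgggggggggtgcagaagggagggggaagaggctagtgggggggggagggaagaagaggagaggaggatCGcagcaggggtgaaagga
The stretch was 65.2% G or C and held 13 CG dinucleotides, against medians of 52.4% and 6.0 over the same stretch of 32851 promoters. The letters CANNTG, which are the same on both strands and include the E-boxes bound by MyoD and its relatives, did not occur in it. They occurred in 66.2% of all promoters. CAGCTG, the subset of that pattern often found under MyoD, was also absent here and occurred in 13% of promoters. In the same annotation Pax3 lies between the protein-coding genes Epha4 and Gm2102, and Pax7 lies between Tas1r2, a taste receptor subunit, and Klhdc7a. The genes were not placed against the mm9 windows.

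The Pax7 window was much the denser of the pair. It held 24 peaks in wild-type myoblasts, 26 in MyoD-null myoblasts, 26 in wild-type-labelled myocytes and 29 in null-labelled myocytes. For comparison, each chromosome was cut into adjoining windows of the same length, from its start to its last peak. Windows without any peak were included, and gaps in the assembly were not taken out. Over all such windows of 190.0 kb the median was 4.0 or 5.0 peaks. Between 0.913% and 4.81% of them, depending on the list, held at least as many peaks as the Pax7 window. The Pax3 window held 12, 10, 7 and 9 peaks in the same order, and between 24.4% and 43.6% of windows of 180.0 kb reached those numbers. Peaks covered 11784 to 15750 bp of the Pax7 window and 4072 to 5765 bp of the Pax3 window.

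Enrichment at the Pax7 window was modest beside its number of peaks. Fold enrichment is the pileup of reads at the summit over the local background, as given by the authors' peak caller. Its median over the Pax7 peaks was 3.34 in wild-type myoblasts, 3.51 in MyoD-null myoblasts, 4.39 in wild-type-labelled myocytes and 3.9 in null-labelled myocytes. The medians of the whole lists were 3.75, 3.73, 4.8 and 4.42, so the Pax7 medians lay below their list in each case. The Pax3 medians were 3.48, 4.06, 5.3 and 4.98, below the list in wild-type myoblasts and above it in the other 3 lists.

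The local background differed between the windows. The genome-wide background of a list was taken as the most frequent local background among its peaks, and was not measured over the genome. It was 8.18 reads per base in wild-type myoblasts, 8.54 in MyoD-null myoblasts, 5.29 in wild-type-labelled myocytes and 6.34 in null-labelled myocytes. Over the Pax7 peaks the median local background was 1.83, 1.78, 1.55 and 2.01 times that level, against 1.26, 1.29, 1.42 and 1.38 times over all peaks of each list. Over the Pax3 peaks it was 1.01, 1.22, 1.16 and 1.24 times. Peaks standing on the genome-wide background made up 28.2%, 26.5%, 29.4% and 26.8% of the 4 lists. In the Pax7 window they were 0 of 24, 0 of 26, 3 of 26 and 1 of 29, and in the Pax3 window 6 of 12, 5 of 10, 3 of 7 and 3 of 9. The highest local background was 22.5 reads per base, at region 26 of the Pax7 window (chromosome 4, 139383623 to 139384148) in wild-type-labelled myocytes.

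**Figure D1:**
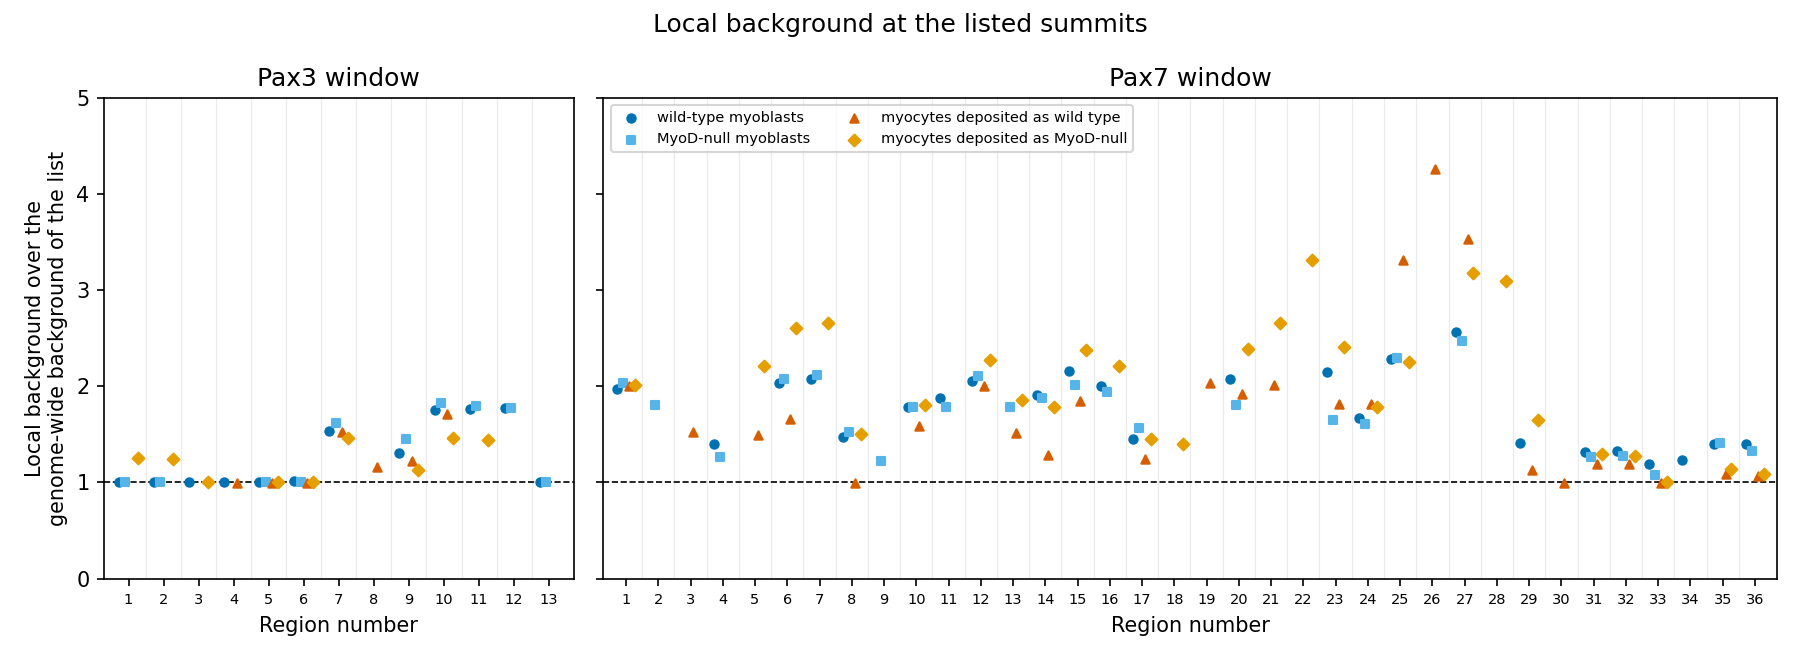
Local background at each listed summit, as a multiple of the genome-wide background of the same list (vertical axis, no unit), for the 13 Pax3 and 36 Pax7 regions in order of position (horizontal axis). Each point is 1 list, the dashed line is the genome-wide background, and the legend names myocyte lists by the genotype of their label. The points reach 4.26 at Pax7 region 26 while all Pax3 points stay at or under 1.83.

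Regions listed in all 4 groups made up 5 of the 13 Pax3 regions (38.5%) and 18 of the 36 Pax7 regions (50%), beside 45.9% of all regions of the series. Their summits lay close together across lists, with a median spread of 76.0 bp for Pax3 and 132.0 bp for Pax7 and a maximum of 308 and 289 bp. They were also the stronger regions by median fold, which is partly built in, since each had to pass the threshold in every list. Single values from the other regions reached 7.49 in the Pax3 window and 7.14 in the Pax7 window. In the Pax3 window the median fold was 4.96 for values from regions in all 4 lists and 3.27 for values from the others. In the Pax7 window it was 4.05 and 2.82. Neither myoblast list gave the highest fold at any of these 23 regions. Over all such regions of the series the wild-type myoblasts were highest at 4.58% and the MyoD-null myoblasts at 6.26%.

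In the Pax3 window the 5 regions in all 4 lists clustered in its right-hand part. The 3 with the highest mean fold were region 5 (chromosome 1, 78178427 to 78178910), region 10 (78212277 to 78213509) and region 6 (78185741 to 78186692). Intervals below are exact Poisson intervals of the pileup at 95%, with the background taken as known, and they cover counting error only. Separate intervals were counted in the Pax3 and Pax7 windows only. How often they occur over all shared regions of the series is not given.

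Region 5 had a fold of 4.58 in wild-type myoblasts (41 reads over a background of 8.18), 4.93 in MyoD-null myoblasts (46 over 8.54), 8.59 in wild-type-labelled myocytes (53 over 5.29) and 5.18 in null-labelled myocytes (37 over 6.34). Wild-type-labelled myocytes had the highest value, and the other 3 lists lay between 4.58 and 5.18. The interval was 6.47 to 11.2 in those myocytes and did not overlap the 3.31 to 6.17 of wild-type myoblasts. It did overlap the 3.63 to 6.53 of MyoD-null myoblasts and the 3.69 to 7.09 of null-labelled myocytes. With genotypes as labelled, region 5 was the only shared Pax3 region with separate intervals in any of the 4 comparisons. By the genotypes in the peak names, its differentiation pairs overlapped.

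Region 10, the widest of the Pax3 regions at 1233 bp, had folds of 5.03 in wild-type myoblasts and 4.81 in their MyoD-null counterparts. It had 6.56 in wild-type-labelled myocytes and 4.98 in null-labelled myocytes. Its pileups were the largest of the window in both myoblast lists, with 76 and 79 reads. Region 6 had similar folds of 5.44, 4.4, 5.41 and 5.45 in the same order, and all intervals overlapped. Region 7 (78192977 to 78193983) had 3.76, 4.44, 5.3 and 5.46, so both myocyte values lay above both myoblast values. Region 9 (78200211 to 78200840) was the weakest of the 5, with 3.58, 3.29, 4.29 and 2.7.

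The left-hand part of the Pax3 window was listed in some groups only. Region 1 (chromosome 1, 78085090 to 78085803) had a fold of 4.14 in wild-type myoblasts, 6.29 in MyoD-null myoblasts and 7.49 in null-labelled myocytes, with 37, 59 and 66 reads. The fourth list, from wild-type-labelled myocytes, lacked it. In that list, at the genome-wide background, a summit of 15 reads or a fold of 2.54 sufficed for listing. The interval at region 1 was 5.82 to 9.5 in the other myocyte list, which lies above that limit. Under the peak-name genotypes, region 1 was the only Pax3 region with separate intervals, 5.82 to 9.5 in these myocytes against 2.95 to 5.66 in wild-type myoblasts. Since the local background of an unlisted site is unknown and peaks shorter than 200 bp do not occur in any list, a missing peak shows only that the site did not pass the authors' threshold.

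Region 2 (78089459 to 78089894) followed the same pattern at lower folds, with 3.38, 3.04 and 3.85 in the 3 lists that held it. Region 11 (78213868 to 78214270), in the right-hand part, was the third of this kind, with 3.37 and 3.72 in the myoblasts and 2.56 in null-labelled myocytes. These 3 of 13 Pax3 regions, or 23.1%, were thus listed in every group but wild-type-labelled myocytes, a pattern shown by 2.97% of all regions. In the Pax7 window it was 2 of 36, or 5.56%.

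The remaining Pax3 regions were weak. Region 3 (78144684 to 78145112) was listed in wild-type myoblasts at 3.27 and in null-labelled myocytes at 4.09, each with 29 reads. Region 4 (78153249 to 78153503) was listed in wild-type myoblasts at 2.72 and in wild-type-labelled myocytes at 3.02. Regions 12 (78214751 to 78215221) and 13 (78230881 to 78231133) were listed in both myoblast groups and in neither myocyte list, at 3.11 and 2.79 and at 3.27 and 2.72. Region 8 (78199722 to 78200103) was the only one found in a single list, wild-type-labelled myocytes, at 3.23 with 22 reads.

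**Figure D2:**
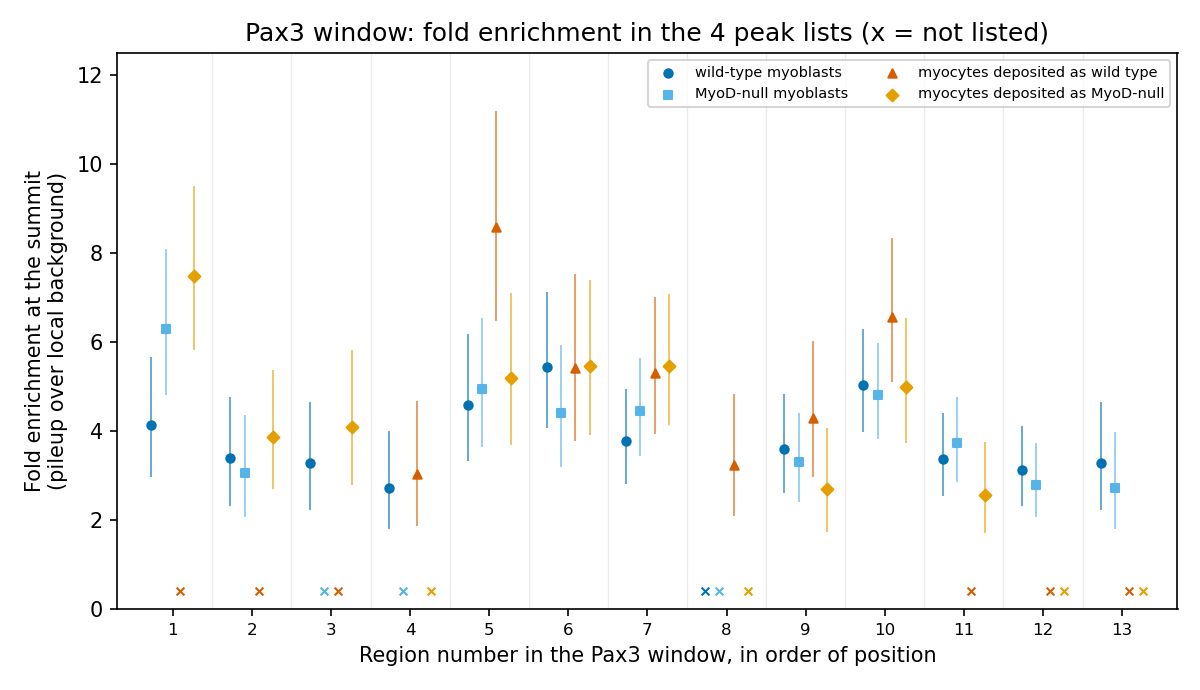
Fold enrichment at the summit (vertical axis, pileup over local background) for the 13 Pax3 regions in order of position (horizontal axis), with 1 marker per list, bars for the 95% Poisson interval of the pileup, and crosses for lists without the region. Region 5 reaches 8.59 in wild-type-labelled myocytes, and regions 1, 2 and 11 lack a value in that list alone.

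In the Pax7 window the 3 regions in all 4 lists with the highest mean fold were region 33 (chromosome 4, 139414495 to 139415013), region 6 (139272242 to 139273008) and region 1 (139253532 to 139254760). Region 33 had folds of 6.6 in wild-type myoblasts, 6.86 in MyoD-null myoblasts, 8.59 in wild-type-labelled myocytes and 6.27 in null-labelled myocytes. It was the strongest Pax7 site of both myoblast lists, and its 4 intervals overlapped. Its summits lay within 74 bp of each other.

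Region 6 had folds of 5.43 in wild-type myoblasts, 5.59 in MyoD-null myoblasts and of 7.77 and 6.95 in wild-type-labelled and null-labelled myocytes. Its pileups of 95, 104, 75 and 121 reads were the largest of the window in 3 of the 4 lists. Both myocyte folds lay above both myoblast folds. Region 1 had 4.15, 4.6, 7.79 and 5.32 in the same order, with 70, 84, 89 and 72 reads. Its interval of 6.27 to 9.56 in wild-type-labelled myocytes lay above the 3.25 to 5.22 of wild-type myoblasts.

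Regions 29 and 10 had higher folds in both myocyte lists than in the myoblast lists that held them. Region 29 (139396801 to 139397451) had a fold of 2.55 in wild-type myoblasts (31 reads over 11.6), 7.14 in wild-type-labelled myocytes (49 over 6.0) and 6.21 in null-labelled myocytes (70 over 10.4). It was not listed in MyoD-null myoblasts. Its ratio of 2.8 between wild-type-labelled myocytes and wild-type myoblasts was the largest at either locus, and the intervals, 5.32 to 9.4 and 1.76 to 3.58, were separate. The other myocyte list also lay above wild-type myoblasts there, with an interval of 4.86 to 7.82. Region 10 (139300629 to 139301120) had 2.5 and 2.88 in the myoblasts and 6.17 and 4.49 in the myocytes. Its interval was 4.7 to 7.96 in wild-type-labelled myocytes against 1.79 to 3.41 in wild-type myoblasts. That of null-labelled myocytes, 3.4 to 5.82, overlapped both this myoblast interval and the 2.13 to 3.83 of MyoD-null myoblasts.

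Regions 15 and 20 were alike in both myocyte lists. Region 15 (139326776 to 139327908) had 4.13 in wild-type myoblasts, 4.02 in MyoD-null myoblasts and 6.59 in each myocyte list. Its interval of 5.4 to 7.97 in null-labelled myocytes lay above the 3.16 to 5.05 of MyoD-null myoblasts. With genotypes as labelled, the Pax7 regions with separate intervals on differentiation were 1, 10 and 29 in wild-type and 15 in MyoD-null cells. With the peak-name genotypes they were 15, 20 and 29 in wild-type and 1, 10 and 15 in MyoD-null cells. The share of all shared regions with separate intervals is not given for either reading. Region 20 (139353147 to 139353745) had 3.94 and 4.24 in the myoblasts and 6.35 and 6.37 in the myocytes.

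A few Pax7 regions ran the other way in 1 genotype when genotypes were read as labelled. Region 23 (139360856 to 139361725) had 4.47 in wild-type myoblasts and 3.95 in wild-type-labelled myocytes, but 3.84 in MyoD-null myoblasts and 5.53 in null-labelled myocytes. Region 24 (139366461 to 139367259), its neighbour, had 3.0 and 5.18 in the first pair and 4.4 and 3.58 in the second. The intervals of each of these pairs overlapped. By the peak names, both regions rose on differentiation in each genotype. Region 23 then went from 4.47 to 5.53 in wild-type and from 3.84 to 3.95 in MyoD-null cells. Region 24 went from 3.0 to 3.58 and from 4.4 to 5.18. The widest Pax7 region, region 27 (139388485 to 139390283, 1799 bp), stood on one of the highest backgrounds, 18.7 to 21.1 reads per base, and had folds of 3.18, 3.17, 3.71 and 4.06.

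The other Pax7 regions in all 4 lists (8, 12, 14, 17, 25, 31, 32, 35 and 36) had folds between 2.63 and 5.99. A further 4 regions were listed in 3 lists. Regions 7 (139274990 to 139275371) and 16 (139330946 to 139331357) lacked wild-type-labelled myocytes, region 13 (139307234 to 139307928) lacked wild-type myoblasts, and region 29 lacked MyoD-null myoblasts. Region 7 had 3.55 in wild-type myoblasts, 3.87 in MyoD-null myoblasts and 4.08 in null-labelled myocytes, with 63 to 73 reads.

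Pax7 regions found only in myocytes or only in myoblasts were weak. Regions 5 and 21 had peaks in each myocyte list but in no myoblast list, at 3.27 and 2.79 and at 2.67 and 2.63. Regions 4 and 11 were listed in both myoblast lists and in neither myocyte list, at 2.81 and 2.71 and at 2.32 and 2.47. Of the 10 regions in a single list, 4 belonged to wild-type-labelled myocytes, 3 to null-labelled myocytes, 2 to MyoD-null myoblasts and 1 to wild-type myoblasts. These were 11.1%, 8.33%, 5.56% and 2.78% of the Pax7 regions, where the same patterns made up 16.3%, 3.42%, 5.45% and 3.74% of all regions. The strongest of them was region 30 (139401679 to 139401938), at 4.14 with 25 reads over the genome-wide background, in wild-type-labelled myocytes.

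**Figure D3:**
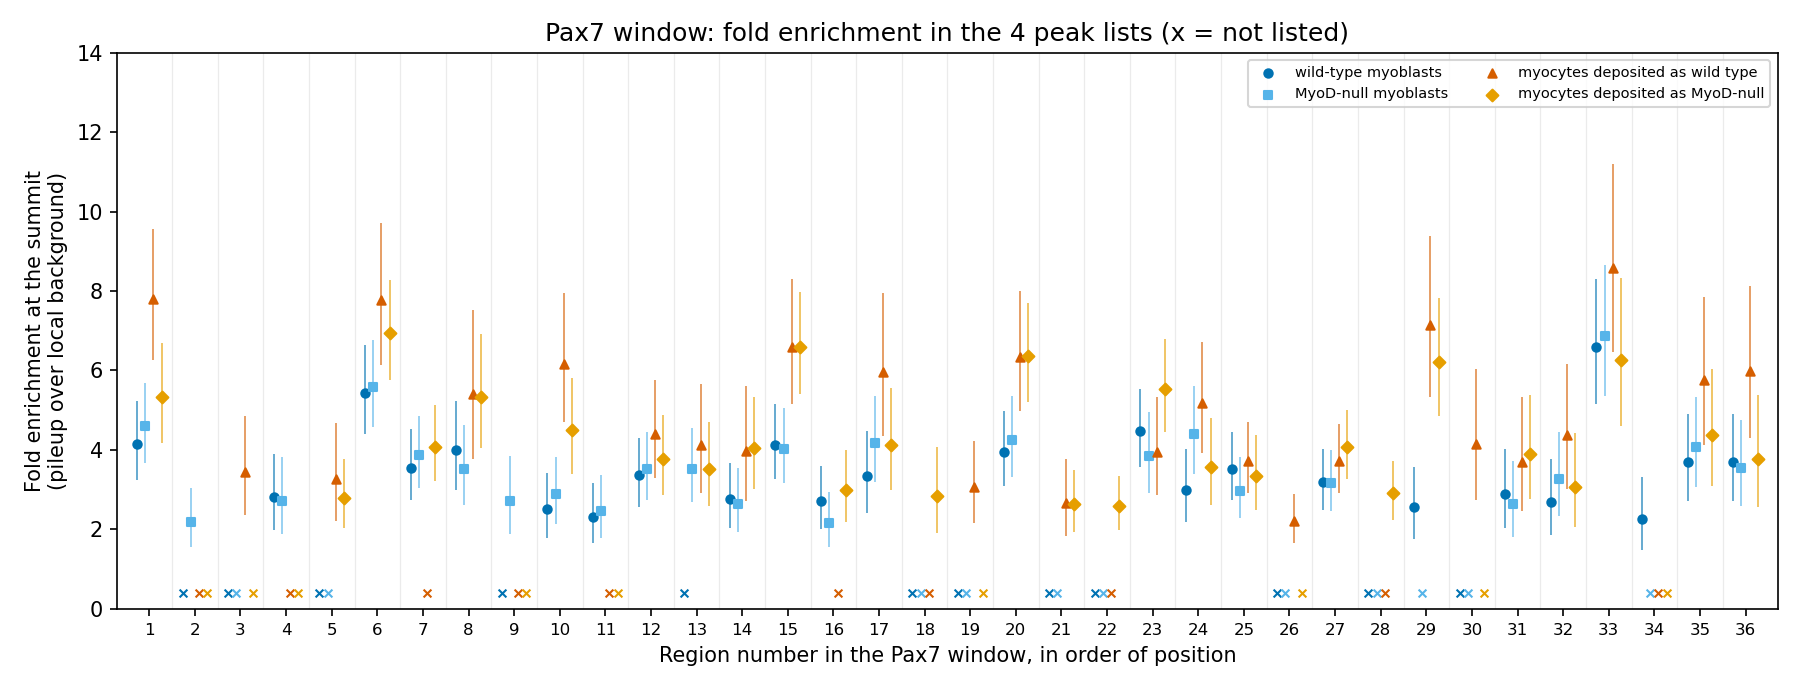
Fold enrichment at the summit (vertical axis, pileup over local background) for the 36 Pax7 regions in order of position (horizontal axis), with markers, bars and crosses as in the plot of the Pax3 regions. The myocyte markers lie above the myoblast markers at many regions, among them 1, 6, 8, 10, 15, 20 and 29, and region 33 is high in every list.

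The first comparison was of wild-type cells before and after differentiation, with genotypes as labelled. The Pax3 window held fewer listed peaks in the myocytes than in wild-type myoblasts, 7 against 12, and the Pax7 window about as many, 26 against 24. Of the 12 Pax3 peaks of wild-type myoblasts, 6 had no overlap in wild-type-labelled myocytes, or 50%, where 18.0% of all peaks of that list had none. For Pax7 it was 5 of 24, or 20.8%. In the opposite direction, 1 of 7 Pax3 peaks (14.3%) and 7 of 26 Pax7 peaks (26.9%) of the myocytes had no overlap in myoblasts, against 30.0% of that whole list. Read by peak names, the wild-type myocytes are the other list. Of the wild-type myoblast peaks, 3 of 12 for Pax3 and 3 of 24 for Pax7 had no overlap there, against 22.3% of all. Of those myocyte peaks, 0 of 9 for Pax3 and 8 of 29 for Pax7 had no overlap in wild-type myoblasts, against 15.5% of that list.

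At the regions listed in both groups the Pax7 folds were higher in myocytes. At the 19 shared Pax7 regions the median fold was 5.77 in wild-type-labelled myocytes and 3.51 in wild-type myoblasts. The median ratio was 1.57, with a range of 0.885 to 2.8, and 18 of 19 ratios were above 1. Of all 77469 shared regions 85.1% had a ratio above 1, and the median was 1.27. A ratio of at least 1.5 was reached by 10 of 19 Pax7 regions, against 26.0% of all shared regions. None of the Pax7 regions was 1.5 times higher in myoblasts, against 0.568% of all. At the 6 shared Pax3 regions the median ratio was 1.25, and region 5, at 1.88, was the only one past 1.5. The lowest ratios were 0.995 at Pax3 region 6 and 0.885 at Pax7 region 23.

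The local background at Pax7 peaks, relative to the genome-wide one, was lower in these myocytes (1.55 times) than in wild-type myoblasts (1.83 times). When each pileup was divided by the genome-wide background of its list in place of the local one, the median ratio at the shared Pax7 regions was 1.42 and that of all shared regions 1.61. With genotypes as labelled, Pax7 lay above the series by the first measure and below it by the second. By the second measure 18 of 19 Pax7 ratios were above 1, where 92.7% of all were. At the Pax3 regions the ratio was 1.25 by both measures. Read by peak names, the median fold ratio of wild-type differentiation was 1.24 at 21 Pax7 regions and 1.13 at 9 Pax3 regions, beside 1.14 over all regions. With pileups over the genome-wide background that reading gave 1.37 for Pax7, 1.16 for Pax3 and 1.29 over all. Pax7 then lay above the series by both measures. A fold ratio of at least 1.5 was reached there by 4 of 21 Pax7 regions, against 6882 of all 73415 shared regions.

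MyoD-null cells, with genotypes as labelled, were compared next. Of the 10 Pax3 peaks of MyoD-null myoblasts, 2 had no overlap in null-labelled myocytes (20%, against 24.7% of the whole list), and of the 26 Pax7 peaks it was 4 (15.4%). Of the myocyte peaks, 1 of 9 for Pax3 (11.1%) and 7 of 29 for Pax7 (24.1%) had no overlap in MyoD-null myoblasts, against 16.2% of that list. At 21 shared Pax7 regions the median fold was 4.08 in myocytes and 3.55 in myoblasts, and the median ratio was 1.16, with 16 ratios above 1 and 5 below, where 73.2% of all shared regions lay above 1. At 8 shared Pax3 regions the median ratio was 1.12, beside 1.12 over all 72860 shared regions. A ratio of at least 1.5 was found at 5 Pax7 regions and no Pax3 region, against 9.27% of all, and none was 1.5 times higher in myoblasts, against 0.939%. The extremes were 1.64 at region 15 and 0.815 at region 24 for Pax7, and 1.27 at region 2 and 0.689 at region 11 for Pax3. Read by peak names, the median ratio was 1.4 at 19 Pax7 regions and 1.3 at 5 Pax3 regions, beside 1.26 over all. In that reading 5 of the 10 Pax3 peaks of MyoD-null myoblasts had no overlap in the myocytes, against 19.8% of the whole list. For Pax7 it was 6 of 26. Of the myocyte peaks, 2 of 7 for Pax3 and 7 of 26 for Pax7 then had no overlap, against 30.0% of that list.

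Loss of MyoD in myoblasts, where labels and peak names agree, was compared at both windows. Every Pax3 peak of MyoD-null myoblasts overlapped a wild-type peak, and 2 of the 12 wild-type peaks (regions 3 and 4) had no MyoD-null partner, or 16.7%, against 12.8% of the whole list. In the Pax7 window 4 of 26 MyoD-null peaks (15.4%, against 14.8% of the list) and 2 of 24 wild-type peaks (8.33%) had no partner. At the 22 shared Pax7 regions the ratio of MyoD-null to wild-type folds had a median of 1.03 and a range of 0.797 to 1.47, and 12 were above 1, where 53.5% of all were. At the 10 shared Pax3 regions the median was 0.939 and the range 0.809 to 1.52. The value of 1.52 belonged to Pax3 region 1, whose intervals of 4.81 to 8.08 and 2.95 to 5.66 overlapped. It was the only region at either locus 1.5 times higher in MyoD-null myoblasts, against 0.414% of all regions, and none was 1.5 times lower, against 0.247%. The Pax7 extremes were region 24 at 1.47 and region 16 at 0.797, and the lowest Pax3 ratio was 0.809 at region 6.

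The 2 myocyte lists were compared last. Of the 9 Pax3 peaks in null-labelled myocytes, 4 had no overlap in wild-type-labelled myocytes (44.4%, against 13.1% of the list), namely regions 1, 2, 3 and 11. Of the 7 peaks in wild-type-labelled myocytes, 2 had no overlap in the other list (28.6%, against 32.0%). For Pax7 it was 5 of 29 (17.2%) and 4 of 26 (15.4%). At the 5 shared Pax3 regions the median ratio of null-labelled to wild-type-labelled myocytes was 0.759, and regions 5 and 9 were at least 1.5 times lower, at 0.603 and 0.629, where 13.6% of all regions were. At the 22 shared Pax7 regions the median ratio was 0.863, beside 0.895 over all 75157 shared regions. The lowest was 0.631 at region 36, the only Pax7 region past 1.5 times, and none was 1.5 times higher, against 2.44% of all. The highest ratios were 1.4 at Pax7 region 23 and 1.03 at Pax3 region 7. With pileups over the genome-wide background the median was 1.0 for Pax7, 0.642 for Pax3 and 0.791 over all, so Pax7 lay below the series by the first measure and above it by the second. In the opposite reading the numerator and denominator change places, and the median ratios were 1.32 for Pax3 and 1.16 for Pax7.

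**Figure D4:**
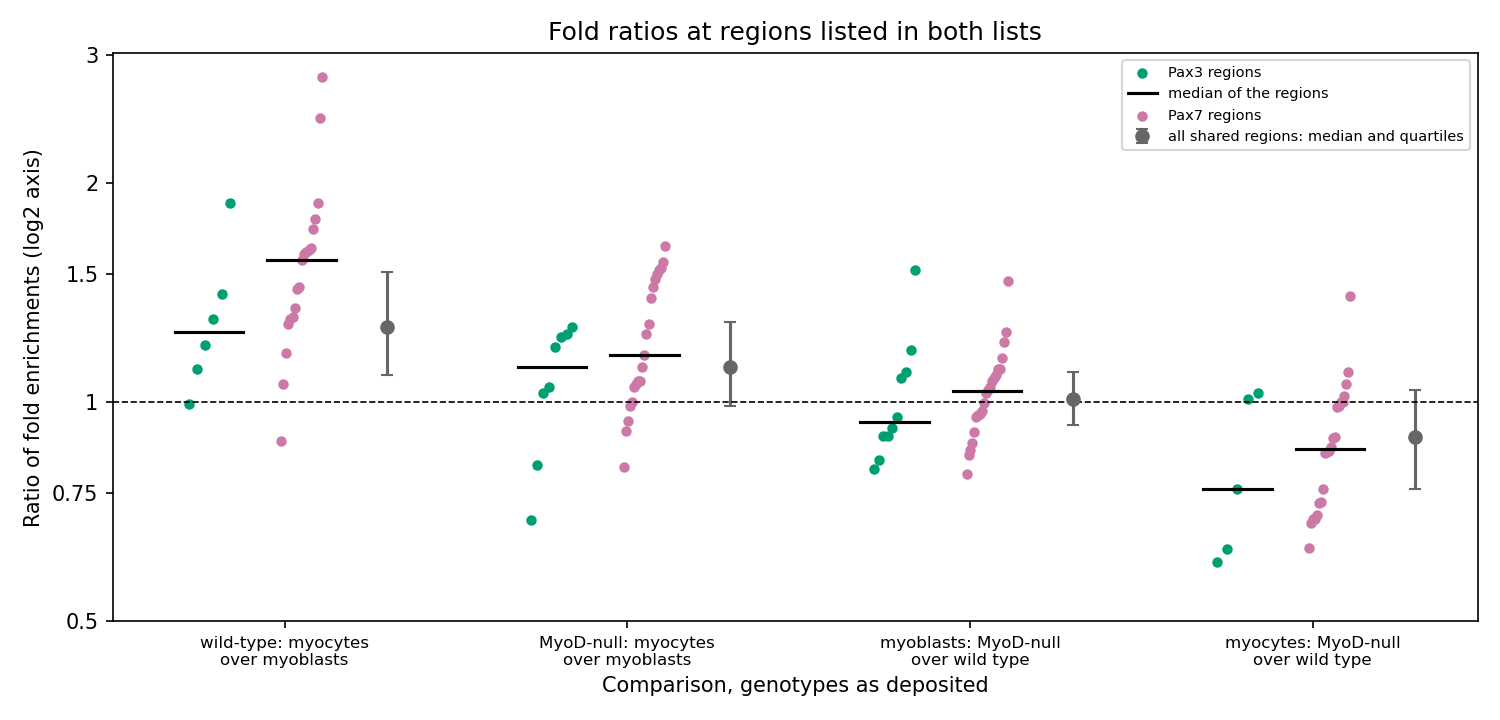
Ratio of fold enrichments (vertical axis, log2 scale) at regions listed in both lists of a comparison (horizontal axis, genotypes as labelled), with 1 point per region, a bar at the median of each window, and grey markers for the median and quartiles over all shared regions. The Pax7 median of 1.57 in wild-type differentiation lies above the median of 1.27 over all regions, and the Pax3 median of 0.759 between the myocyte lists lies under the 0.895 of all.

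Peaks outside the windows were not counted, and 3 of the 4 window edges had one nearby in some or all lists. On the left of the Pax3 window, 5.33 kb outside it, wild-type myoblasts had a peak with a fold of 7.19, and MyoD-null myoblasts one of 7.65 at nearly the same place. The nearest myocyte peaks outside this edge, 2.4 and 2.43 kb away, had folds of 3.22 and 3.21. They lay at another site, and whether the myocyte lists also held a peak at the myoblast site was not looked up. The first Pax3 peak inside lay 25.3 kb from the edge in both myoblast lists, 25.6 kb in null-labelled and 93.3 kb in wild-type-labelled myocytes. On its right edge the nearest outside peaks were 67.1 kb away in wild-type myoblasts, 66.8 kb in MyoD-null myoblasts, 67.8 kb in wild-type-labelled and 29.7 kb in null-labelled myocytes. On the left of the Pax7 window all 4 lists had a peak 4.31 to 4.33 kb outside, with folds of 4.02 to 5.5, and region 1 lay 3.9 to 3.97 kb inside. On the right of the Pax7 window, both myoblast lists had a peak within 1.37 kb of the edge, with folds of 3.43 and 2.95, and the nearest peak of the myocyte lists was 51.7 or 67.0 kb away. The nearest Pax7 peaks inside that edge lay 6.53 to 6.71 kb from it, with folds of 3.55 to 5.99.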

How the data were processed

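ATAC-seq of 12 samples was available as 4 peak lists, 1 per group. Per the submitters' processing notes the build was mm9 and the peak caller MACS2, without version. Peak names in the deposited files refer to merged alignments with a MAPQ30 tag. No source used here gives the ATAC aligner, the caller's settings or any shift of reads for the transposase. The fold enrichment (a ratio), −log10 p and −log10 q of each peak are as deposited by the authors, and the lowest −log10 q of 2.02 to 2.04 matches a limit of 0.01. The 6 RNA-seq samples were not used here.

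Autosomes and sex chromosomes held 98097 peaks in wild-type myoblasts, 101755 in MyoD-null myoblasts, and 112030 and 88233 in wild-type-labelled and null-labelled myocytes. Whole-number pileups and local backgrounds were solved from fold = (pileup + 1) / (background + 1) and the Poisson −log10 p, which met the deposited value within 0.01 for 100.0% of peaks. Reads here are reads covering the summit after the caller's extension. Read totals per sample are unknown, and PCR copies may be included. At a region with several peaks of a list, the highest fold was used. Peaks shared at least 1 bp to count as overlapping. A ratio of 1.5 was called. No p-value is given, with 1 list per group. By the rule for named regions any of the 49 could be named, with full values for the 3 of highest mean fold in all 4 lists, the strongest in 1 list, and the largest ratios of each comparison. Other regions shown in full were chosen after their values were seen. The members, windows and comparisons were chosen with earlier results of these data known. The planned list of other progenitor genes and the search for genes with a like pattern were not run, since no annotation in mm9 was used here.

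Alternatives were lists cut to 88233 peaks each, a q of 1e-5, a fold of 5 or more, the mean fold over a region, a reciprocal overlap of 50%, summits within 250 bp, other windows, folds relative to the list, and genotypes read from peak names. Pileups over the genome-wide background, and peak names for fold ratios, were added after seeing the data. The work ran in Python 3.11.15 with scipy 1.17.1, pandas 2.3.3, numpy 2.4.6 and, for plots, matplotlib 3.10.9. On 20000 simulated positions all 7 known quantities were recovered within 1 percent.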

Additional observations from a re-analysis of the deposited data

Results flagged for a closer look

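With the genotypes as labelled, 13 regions differed in the direction of their fold on differentiation between wild-type and MyoD-null cells, counting an unlisted region as lower. None of these differences was tested, and with 1 list per group none can be. No share over all regions is given for counts that include unlisted regions, in this reading or by peak names. Among regions in all 4 lists the direction was opposite at 2 of 5 for Pax3 (40.0%) and 5 of 18 for Pax7 (27.8%), beside 29.1% of all such regions.

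In the following regions the fold was lower in wild-type-labelled myocytes than in wild-type myoblasts and higher in the MyoD-null pair. The ratio of MyoD-null myocytes to MyoD-null myoblasts was 1.19 at Pax3 region 1, 1.27 at Pax3 region 2 and 1.24 at Pax3 region 6. It was 1.05 at Pax7 region 7, 1.39 at Pax7 region 16 and 1.44 at Pax7 region 23. Pax3 region 3 had a fold of 4.09 in null-labelled myocytes and was not listed in MyoD-null myoblasts.

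In the other direction, the MyoD-null ratio was 0.819 at Pax3 region 9, 1.0 (just under 1 before rounding) at Pax7 region 13, 0.988 at Pax7 region 17, 0.815 at Pax7 region 24, 0.942 at Pax7 region 32 and 0.914 at Pax7 region 33. Read by peak names, 5 Pax3 and 4 Pax7 regions had opposite directions. Among regions in all 4 lists that reading gave 2 of 5 for Pax3 and 2 of 18 for Pax7, beside 28.1% of all such regions.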

How the results depend on the processing

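Values have no replicate error, and depth limits which sites were listed. No paired analysis was possible because each group is 1 list of merged replicates, and for the same reason no replicate could be left out. Listed peaks per window kept within 1.5 times of their number with a q of 1e-5, lists of equal length and either change of window. The numbers of regions in all 4 lists did so with a q of 1e-5, lists of equal length and summits within 250 bp. With a fold of at least 5, the Pax3 window held 2, 1, 4 and 4 peaks and the Pax7 window 2, 2, 12 and 8, in wild-type myoblasts, MyoD-null myoblasts, wild-type-labelled and null-labelled myocytes. The share of each whole list at that fold is not given. The median folds of the whole lists, 3.75, 3.73, 4.8 and 4.42 in the same order, were also higher in the myocytes. These counts are thus not a result about the windows.

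Folds relative to the list divide every region by the same value. They gave Pax3 ratios of 0.942 (wild-type differentiation) and 0.978 (MyoD-null differentiation), beside 0.959 and 0.98 over all regions. With pileups over the genome-wide background, the ratio between myoblasts was 1.0 (just over 1 before rounding) for Pax3 and 0.951 for Pax7, and the ratio between myocytes was 1.0 for Pax7. Peak names exchange numerator and denominator of the myocyte ratios, which then read 1.32 (Pax3) and 1.16 (Pax7).

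Counts of peaks without overlap moved by over 1.5 times in 24 of 76 alternatives. The shares of the whole lists under the other cuts, list lengths and overlap rules are not given. A count that changed there is thus not a result about the windows. In wild-type differentiation, the Pax3 myocyte count of 1 became 0 by peak names and with lists of equal length, and 2 by summits. The Pax3 myoblast count of 6 became 3 by peak names. The Pax7 myocyte count of 7 became 4 with lists of equal length. The Pax7 myoblast count of 5 became 3 by peak names and with a q of 1e-5, and 8 with a reciprocal overlap.
In MyoD-null differentiation, the Pax3 myocyte count of 1 became 2 by peak names and 3 with a reciprocal overlap. The Pax3 myoblast count of 2 became 5 by peak names, 1 with lists of equal length and 4 with a reciprocal overlap. The Pax7 myoblast count of 4 became 0 with lists of equal length and 1 with a q of 1e-5.
In myoblasts, the Pax7 MyoD-null count of 4 became 2 with lists of equal length, and the wild-type count of 2 became 4 with a reciprocal overlap. Between myocytes, the Pax3 counts of 4 and 2 changed places by peak names, and the second became 0 with lists of equal length. The Pax7 count of 5 became 8 with lists of equal length and by summits, and 9 with a reciprocal overlap, and the count of 4 became 1 with lists of equal length. The cause was not tested.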
